A study of Mus musculus with 12 samples.

Results

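The phagocyte NADPH oxidase is described here through 6 genes, Cybb, Cyba, Ncf1, Ncf4, Rac2 and Nox4, taken by gene symbol from 2 tables of raw counts. All 6 were listed in both tables, among 32285 genes of mouse retina and 55401 genes of mouse cells labelled brain microvascular pericytes. The retina samples were wild type and labelled ONC, the usual short form of optic nerve crush, at day 1, and the 2 groups were ONC+PBS and ONC+i.o.MSC.sEV, with 3 libraries each. PBS is phosphate-buffered saline, MSC.sEV stands for small extracellular vesicles of mesenchymal stem cells, and i.o. is not spelled out in the labels and is absent from the label of the PBS group. The pericyte-labelled samples, also wild type, received PBS or MSC.sEV for 12 hours, with 3 libraries each. Their titles all hold P4, which is not interpreted here. By the labels both retina groups share the crush, and they name no uninjured retina, strain or age. Retina columns were named CTR and M, and taking CTR for the ONC+PBS samples and M for those given vesicles is an inference on which the direction of every retina value rests. If the CTR columns held uninjured retina instead, every retina difference given here would include the effect of the crush.

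The oxidase moves electrons from NADPH across a membrane onto oxygen and so makes superoxide, which phagocytes use against microbes. Its membrane core is a pair of proteins, gp91phox (Cybb), the catalytic chain, and p22phox (Cyba), which stabilises it. In a resting cell regulators such as p47phox (Ncf1) and p40phox (Ncf4) wait in the cytosol, and on activation they dock on the core together with a Rac GTPase, which is Rac2 in blood-derived cells and Rac1 in most others. Nox4 is a related catalytic chain of vascular and other non-phagocytic cells that also pairs with p22phox but needs none of the cytosolic regulators. In the eye and brain the phagocyte form is known from microglia and from infiltrating neutrophils and macrophages.

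Promoters of the subunits are shown because several of these genes moved together, and because Spi1 (PU.1) and interferon regulatory factors are known to control Cybb. RefSeq sequences for build GRCm38.p6, 250 bases before to 50 bases after the annotated start, were found for 4 of the 6 genes, Cybb, Cyba, Ncf1 and Nox4. Capitals mark matches, on either strand, to GAGGAA (a core of PU.1 sites), GAAANNGAAA (as in interferon-stimulated response elements), TTCNNNGAA (as in STAT sites) or TTGCNNAA (as in C/EBP sites). The Cybb sequence lies at chrX:9469275-9469574 and the Ncf1 sequence at chr5:134229576-134229875, both on the minus strand.
Cybb: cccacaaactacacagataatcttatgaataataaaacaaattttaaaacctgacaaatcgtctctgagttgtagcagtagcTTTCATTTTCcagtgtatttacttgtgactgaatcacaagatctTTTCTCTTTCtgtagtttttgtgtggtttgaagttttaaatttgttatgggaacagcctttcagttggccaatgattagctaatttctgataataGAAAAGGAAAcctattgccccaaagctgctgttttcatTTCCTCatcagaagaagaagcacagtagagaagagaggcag
Ncf1: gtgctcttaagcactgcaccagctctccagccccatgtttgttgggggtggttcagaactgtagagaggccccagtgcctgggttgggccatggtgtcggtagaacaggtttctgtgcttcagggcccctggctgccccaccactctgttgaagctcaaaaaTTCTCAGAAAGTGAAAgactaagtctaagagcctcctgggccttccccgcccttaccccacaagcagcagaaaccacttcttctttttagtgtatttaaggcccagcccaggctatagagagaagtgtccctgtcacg
Cybb held 3 matches to GAAANNGAAA, starting at positions -168, -124 and -29 from the start, and 1 match to GAGGAA on the opposite strand at position 10. Ncf1 held 1 match to GAAANNGAAA at position -82, which overlaps its 1 match to TTCNNNGAA at position -88. The sequence of Cyba held none of the 4 motifs, and that of Nox4 held 1 match to TTCNNNGAA. Among 32851 RefSeq promoters of the same length, 28.3% held GAGGAA, 3.44% held GAAANNGAAA, 8.30% held TTCNNNGAA and 10.8% held TTGCNNAA. These are letter matches and no binding was measured.

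Retina libraries held between 15580024 and 16842926 counts and pericyte-labelled libraries between 33001248 and 37954077. Levels are given in CPM, the usual depth-scaled count with library sizes adjusted by TMM. A count of 3 in a library equalled 0.180 to 0.196 CPM in the retina and 0.0778 to 0.0895 CPM in the other table. Effects are log2 fold changes of vesicles over PBS ± SE from edgeR, and a gene was called at adjusted p under 0.05 over all genes tested in its table. Crystallin mRNAs of the lens made up between 0.0202% and 8.07% of counts in the retina libraries, with vesicle library 2 the highest, followed by vesicle library 1. All 6 rod markers passed the filter in the retina, where their summed level ran from 62135 to 96034 CPM. Of 10 pericyte markers 7 passed the filter in the pericyte-labelled libraries, with means under PBS of 59.7 CPM for Pdgfrb, 25.0 for Notch3, 11.9 for Cspg4, 8.87 for Mcam, 5.97 for Anpep, 3.93 for Vtn and 0.283 for Rgs5, while Kcnj8, Abcc9 and Des did not. Glial markers were abundant in the same PBS libraries, with the astrocyte genes Aqp4 at 477, Aldoc at 271, Aldh1l1 at 219 and Gfap at 215 CPM, the glial transporter Slc1a3 at 434 CPM, and the oligodendrocyte-lineage factors Olig1 at 208 and Olig2 at 64.4 CPM. The label of these cells is therefore used here only as a name. Nothing in the labels ties the libraries to separate animals or cultures, so p-values measure only the spread between these libraries.

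In the injured retina the mRNAs of all 5 phagocyte subunits that could be tested were higher with vesicles than with PBS, from 3.05-fold for Cyba to 14.6-fold for Rac2. Of the 15440 genes tested in the retina, 15.9% were called, 10.7% as higher and 5.19% as lower with vesicles. Nox4 did not pass the filter on low counts and is described separately. In these 5 genes every vesicle library was above every PBS library, a pattern met with vesicles above in 19.5% of all tested genes. The median log2 fold change of the 5 tested genes was 3.25, beside -0.02 over all tested genes. In bulk RNA, more cells of a type and more RNA per cell cannot be told apart.

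Cybb, the catalytic chain, was at 1.57, 0.547 and 1.62 CPM in PBS libraries 1 to 3 of the retina and at 10.3, 8.91 and 6.85 CPM in vesicle libraries 1 to 3. The lowest vesicle library was 4.23 times the highest PBS library. Cybb rose by a log2 fold change of 2.80 ± 0.38 (adjusted p = 0.0014). Cyba, its membrane partner, was at 4.50, 3.28 and 5.71 CPM with PBS and at 16.9, 15.5 and 8.89 CPM with vesicles. For Cyba the groups came closest to each other, with the lowest vesicle library only 1.56 times the highest PBS library. Cyba rose by 1.61 ± 0.29 on the log2 scale (adjusted p = 0.0058), and it missed the threshold once PBS library 1 and vesicle library 2, which held the most crystallin mRNA of their groups, were set aside (1.53, adjusted p = 0.074).

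The cytosolic regulators were low with PBS and rose by larger factors than the membrane chains, although the difference between genes was not tested. Ncf1, the organiser that carries the others to the membrane, was at 2.81, 1.46 and 3.12 CPM with PBS and at 26.6, 24.5 and 19.6 CPM with vesicles in the retina. Its log2 fold change was 3.25 ± 0.27 (adjusted p = 0.00012). Ncf4, which binds a phosphoinositide of the phagosome membrane, was at 0.653, 0.730 and 0.961 CPM with PBS and at 8.92, 11.1 and 7.41 CPM with vesicles. Neither gene had overlapping groups, and the lowest vesicle library was 6.27 times the highest PBS library for Ncf1 and 7.71 times for Ncf4. Ncf4 rose by 3.53 ± 0.29 on the log2 scale (adjusted p = 0.00012). Exons of Ncf1 share 408 bases with Gtf2ird2 on the opposite strand in GENCODE vM21, and since the labels do not state strandedness, reads there are uncertain. Gtf2ird2 itself had a log2 fold change of -0.03 ± 0.14 in the retina (adjusted p = 0.92).

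Rac2, the GTPase of the assembled oxidase in blood-derived cells, had the largest change of the 5 in the retina. It was at 3.79, 0.851 and 2.76 CPM with PBS and at 38.9, 40.6 and 28.3 CPM with vesicles, a log2 fold change of 3.87 ± 0.46 (adjusted p = 0.0034). PBS library 2 was far below the other PBS libraries for this gene. Without PBS library 2 the log2 fold change of Rac2 was 3.45, the lowest of the 14 alternatives tried. The same library was lowest of the PBS group for Cybb, Cyba and Ncf1, and it also had the lowest summed monocyte and macrophage markers (60.8 CPM, beside 91.9 and 103 CPM). Vesicle library 3 was lowest of its group for all 6 genes, Nox4 included, and had the lowest summed neutrophil markers (391 CPM, beside 692 and 853 CPM) and monocyte and macrophage markers (654 CPM, beside 955 and 976 CPM). It also held the least crystallin mRNA of its group (0.0202% of counts, beside 2.11% and 8.07%). Its summed fibroblast markers were lowest too (21.5 CPM, beside 99.1 and 74.8 CPM). What links these values was not tested.

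**Figure D1:**
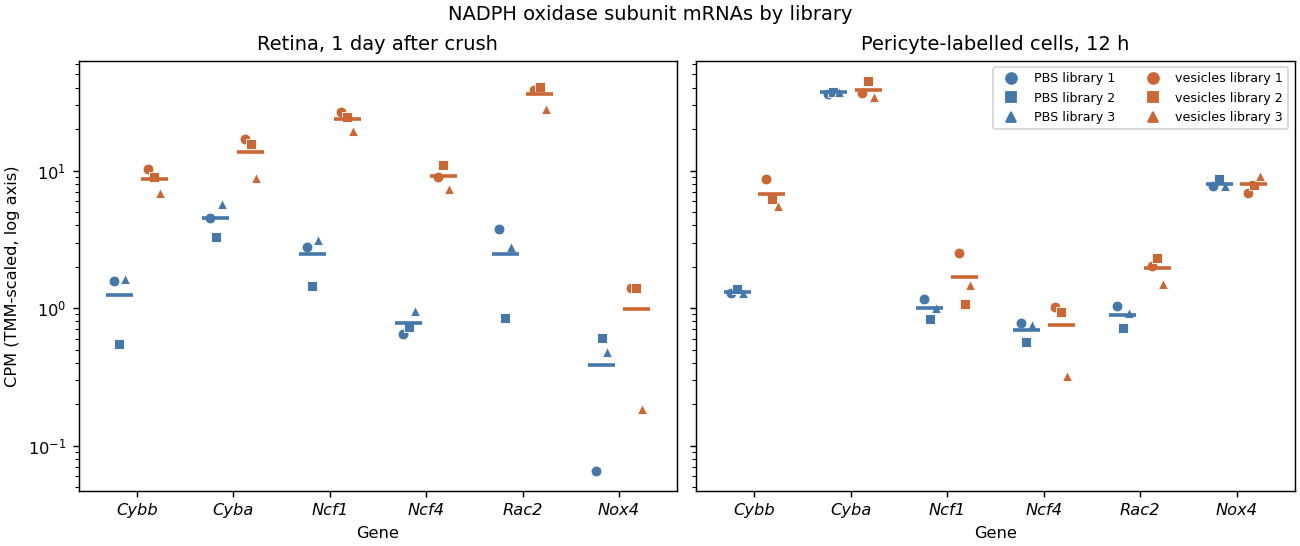
CPM of each oxidase gene (log axis) in every library, with PBS in blue and vesicles in orange, marker shape giving the library number and lines the group means. In the retina the groups of Cybb, Cyba, Ncf1, Ncf4 and Rac2 are apart, while in the pericyte-labelled cells this holds for Cybb and Rac2.

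Markers of neutrophils, of monocytes and macrophages, and of microglia moved in the same retina libraries. Of 11 neutrophil markers 9 were tested and 8 rose, and their sum went from a range of 16.8 to 39.6 CPM to a range of 391 to 853 CPM. Of 11 monocyte and macrophage markers 10 rose, and the sum went from 60.8 to 103 CPM with PBS to 654 to 976 CPM with vesicles. Of 8 microglia markers 1 rose and 4 fell, and their sum ran from 76.8 to 80.0 CPM with PBS and from 51.2 to 174 CPM with vesicles. The upper end came from Olfml3 in the lens-rich vesicle library 2 (126 CPM, beside 34.2 and 4.94 CPM), and without that gene, left out after the values were seen, the sums ran from 71.4 to 75.1 CPM with PBS and from 46.2 to 48.2 CPM with vesicles. Over all genes tested in the retina 10.7% were called as higher and 5.19% as lower. No marker of the 3 lists was at 0 in all retina libraries. The part of these cells in the oxidase changes was not tested.

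Ptprc, the pan-leukocyte antigen CD45, gives a scale for the subunits, with 33 to 49 counts in the PBS and 398 to 577 counts in the vesicle libraries of the retina. Rac2 stood at 118, 42.4 and 112 counts per 100 Ptprc counts with PBS and at 108, 111 and 115 with vesicles. Cybb stood at 49.0, 27.3 and 65.9 with PBS and at 28.7, 24.4 and 27.9 with vesicles. The groups overlapped on this scale for both genes, and also for Ncf1 and Ncf4. Cyba stood at 141, 164 and 232 with PBS and at 46.9, 42.5 and 36.2 with vesicles, so that its groups were apart in the other direction. These ratios are given as a description, with no test, and the small Ptprc counts of the PBS libraries make them coarse there.

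**Figure D2:**
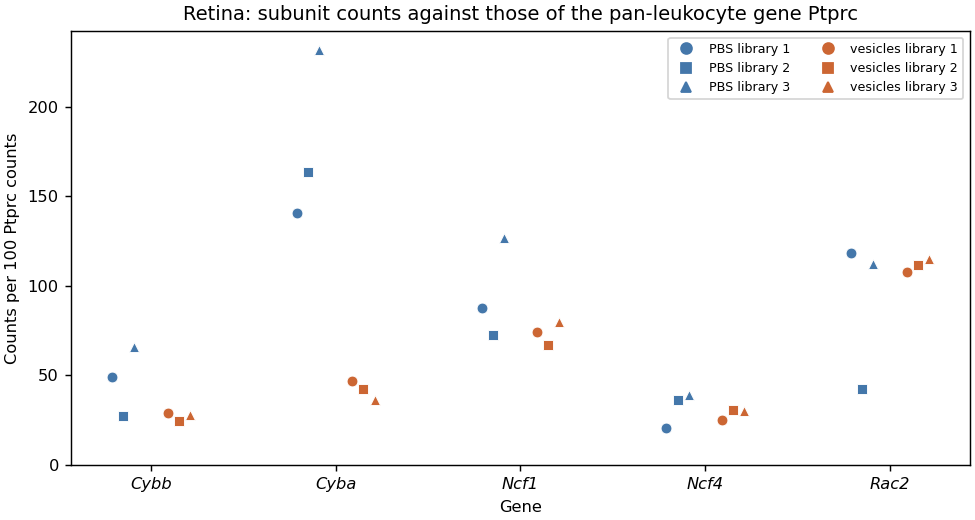
Retina counts of 5 subunits per 100 counts of Ptprc, by library, with PBS in blue and vesicles in orange. Rac2, Ncf1, Ncf4 and Cybb have overlapping groups, and Cyba is lower in every vesicle library, from 36.2 to 46.9 against 141 to 232.

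Nox4 was scarce in the retina. It had 1, 10 and 8 counts in PBS libraries 1 to 3 and 22, 22 and 3 counts in vesicle libraries 1 to 3. In CPM these were 0.0653, 0.608 and 0.481 with PBS and 1.40, 1.39 and 0.185 with vesicles, so the groups overlapped. The means were 0.385 ± 0.284 and 0.993 ± 0.699 CPM (SD, n = 3), and a 2-sided exact permutation test gave p = 0.30, where the smallest p that 3 against 3 libraries allow is 0.10. The fit with no low-count filter gave 1.33 ± 0.76 on the log2 scale (adjusted p = 0.33). No difference in Nox4 was detected between these groups of libraries.

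In the pericyte-labelled cells 2 of the 6 genes rose with vesicles, Cybb and Rac2, and none fell. Of 16975 genes tested there 19.8% were called, 10.9% as higher and 8.90% as lower, and against that background 2 of 6 rests on few genes. Groups with vesicles above and no overlap were met in 17.4% of all tested genes, and among the 6 in Cybb and Rac2. The median log2 fold change of the 6 was 0.42, beside 0.00 over all tested genes.

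Cybb was at 1.30, 1.37 and 1.30 CPM in the 3 PBS libraries of these cells and at 8.62, 6.27 and 5.55 CPM in the vesicle libraries. The PBS libraries were nearly alike, from 46 to 50 counts each, and every vesicle library held at least 206 counts. The rise of Cybb was 5.15-fold, a log2 fold change of 2.36 ± 0.21 (adjusted p = 4.2e-08). Rac2 was at 1.04, 0.713 and 0.918 CPM with PBS and at 2.03, 2.33 and 1.51 CPM with vesicles. Its groups were apart by less, the lowest vesicle library being 1.45 times the highest PBS library. Rac2 rose by 1.13 ± 0.33 on the log2 scale (adjusted p = 0.018). It was no longer called when PBS library 2 was left out (0.99, adjusted p = 0.077) or when vesicle library 2 was (0.98, adjusted p = 0.088).

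Cyba, Ncf1 and Ncf4 did not pass the test in these cells. Cyba was abundant, at 36.3, 37.2 and 37.5 CPM with PBS and at 36.8, 45.1 and 34.2 CPM with vesicles, with overlapping groups. Its log2 fold change was 0.07 ± 0.09 (95% interval -0.12 to 0.25, adjusted p = 0.70). Ncf1 was at 1.17, 0.832 and 0.999 CPM with PBS and at 2.51, 1.07 and 1.48 CPM with vesicles, and only vesicle library 1 stood well above the PBS range. The log2 fold change of Ncf1 was 0.74 ± 0.36 (95% interval -0.01 to 1.50, adjusted p = 0.18). Ncf4 was at 0.778, 0.565 and 0.756 CPM with PBS and at 1.01, 0.930 and 0.323 CPM with vesicles. Here vesicle library 3 was the lowest of all 6 libraries, and the log2 fold change was 0.10 ± 0.49 (95% interval -0.93 to 1.13, adjusted p = 0.93). The intervals of Ncf1 and Ncf4 still hold changes of 2-fold, while that of Cyba does not.

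Nox4 was readily measured in the pericyte-labelled cells, with between 230 and 341 counts per library. It was at 7.73, 8.65 and 7.75 CPM with PBS and at 6.86, 7.80 and 9.18 CPM with vesicles. The vesicle libraries lay on both sides of the PBS libraries. The log2 fold change was -0.01 ± 0.14 (95% interval -0.31 to 0.28, adjusted p = 0.97). Of 10 genes fixed as regulators or partners of Nox4, 4 rose and 3 fell in these cells, with a median log2 fold change of -0.04. Over all genes tested there 10.9% were called as higher and 8.90% as lower, and the list holds few genes. Among them Smad3, a mediator of transforming growth factor beta, rose from 93.4 ± 5.58 to 163 ± 1.07 CPM (adjusted p = 9.7e-10), and Tgfb1 from 40.6 ± 3.47 to 54.6 ± 1.20 CPM (adjusted p = 0.00018). The ligand gene Tgfb2 fell by 0.31 on the log2 scale (adjusted p = 0.0042). In the retina 4 of the same 10 genes rose and 0 fell, with a median of 0.69, beside 10.7% of all tested genes called as higher. Tgfb2 rose there by 1.03 ± 0.23 (adjusted p = 0.020).

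Several defining myeloid markers were at 0 in the pericyte-labelled libraries, and others were not. Ccr2, the receptor of inflammatory monocytes, was at 0 in all 6 libraries, and so were the neutrophil genes Cxcr2, Ly6g, Retnlg and S100a9 and the microglia gene Siglech. The neutrophil markers summed to 1.59 to 2.20 CPM with PBS and to 4.10 to 4.53 CPM with vesicles, with Mmp9, which other cells also make, the 1 gene called of 2 tested. Of 11 monocyte and macrophage markers 7 were tested and 2 rose, Adgre1 and Ptprc, beside 10.9% of all tested genes called as higher. Ptprc had 2, 13 and 12 counts in the PBS and 41, 39 and 41 counts in the vesicle libraries (log2 fold change 2.16 ± 0.56, adjusted p = 0.0085). The 11 together went from 82.0 to 88.4 CPM with PBS to 91.3 to 136 CPM with vesicles, most of it Lyz2 (71.8 and 92.8 CPM, adjusted p = 0.14). Cd68 was at 4.95 and 6.71 CPM (adjusted p = 0.068), and Csf1r, the receptor that macrophages need to survive, was at 4.64 and 4.50 CPM (adjusted p = 0.91). Of 8 microglia markers 6 were tested and 1 fell, Olfml3, beside 8.90% of all tested genes called as lower. Olfml3 made up most of the sum of the 8, which was 510 to 548 CPM with PBS and 464 to 492 CPM with vesicles. The part of myeloid cells in the rise of Cybb was not tested.

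The vesicle effects of both settings were compared in a joint limma fit over 13712 genes, of which 11.9% were called as different. The settings differ together in tissue, injury, time and table, which cannot be told apart. The effect was larger in the retina for Ncf4 (difference of log2 fold changes 3.55 ± 0.61, adjusted p = 0.0013), Rac2 (2.98 ± 0.61, adjusted p = 0.0044), Ncf1 (2.66 ± 0.51, adjusted p = 0.0027) and Cyba (1.53 ± 0.35, adjusted p = 0.0091). For Cybb the difference did not pass the test, at 0.58 ± 0.51 with a 95% interval from -0.51 to 1.68 (adjusted p = 0.53). Cybb was thus the gene with called rises in both settings and no called difference between them, though the interval leaves room for a retina effect up to 1.68 larger on the log2 scale.

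**Figure D3:**
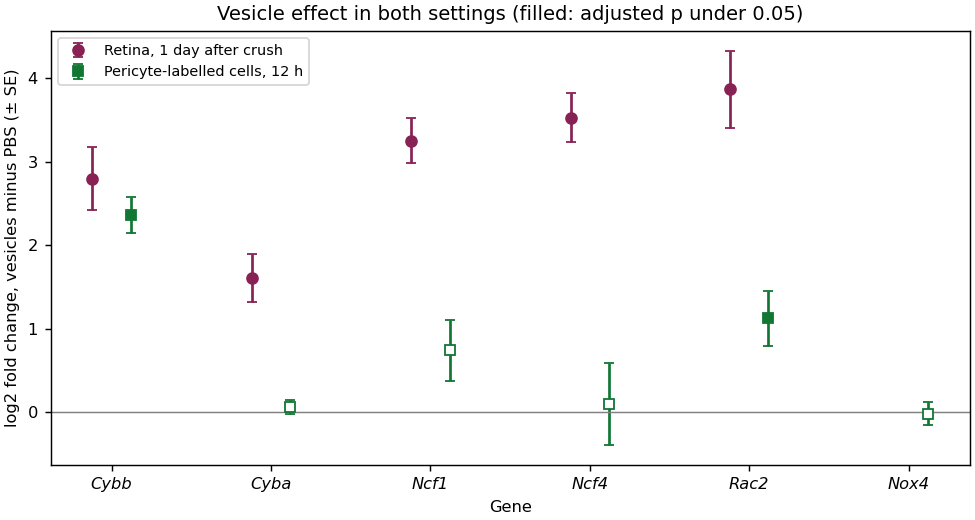
Log2 fold change of vesicles over PBS ± SE for the 6 oxidase genes, with retina as circles and pericyte-labelled cells as squares, filled where adjusted p was under 0.05. Cybb is high in both settings (2.80 and 2.36), and the other phagocyte genes are higher in the retina. Nox4 was not tested in the retina.

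Levels of different genes were compared per kilobase of exon, with lengths from GENCODE vM21, since longer mRNAs give more reads. In PBS retina the order of level was Cyba (4.33 CPM per kilobase), Rac2 (0.795), Ncf1 (0.672), Ncf4 (0.387), Cybb (0.214) and Nox4 (0.0454). The libraries of Rac2 and Ncf1 overlapped, as did those of Ncf1 and Ncf4, and the other neighbours in the order did not. With vesicles the order in the retina stayed Cyba (13.2), Rac2 (11.6), Ncf1 (6.43), Ncf4 (4.52), Cybb (1.50) and Nox4 (0.117), with overlap between Cyba and Rac2 and between Ncf1 and Ncf4. The catalytic chain Cybb was below its partner Cyba on this scale in every retina library.

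In PBS pericyte-labelled cells the order was Cyba (35.6 CPM per kilobase), Nox4 (0.949), Ncf4 (0.346), Rac2 (0.287), Ncf1 (0.273) and Cybb (0.227). The last 4 of these overlapped from neighbour to neighbour, while Nox4 stood above all of them. With vesicles Cybb came next after Cyba (37.3), at 1.17 CPM per kilobase, followed by Nox4 (0.938), Rac2 (0.630), Ncf1 (0.460) and Ncf4 (0.374), and the last 3 overlapped from neighbour to neighbour. Cybb and Nox4 overlapped in this group (0.955 to 1.48 and 0.810 to 1.08), so the mRNA of the phagocyte catalytic chain went from under that of Nox4 to a similar range. Ubiquitous Rac1 stayed far above Rac2 per kilobase in these cells, at 65.7 with PBS and 68.2 with vesicles.

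**Figure D4:**
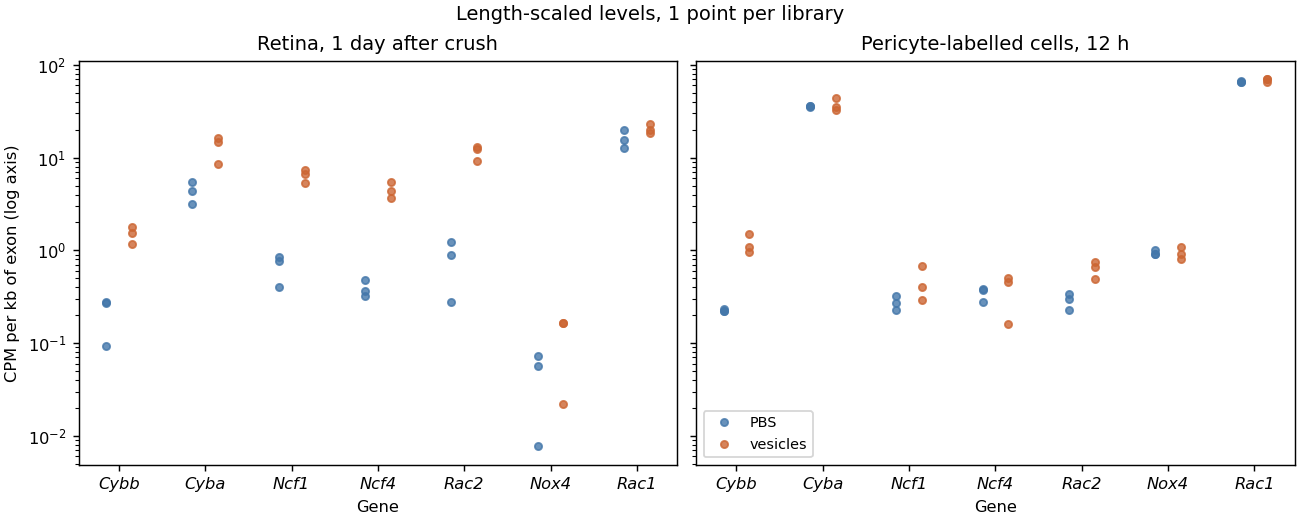
CPM per kilobase of exon (log axis), 1 point per library, for the 6 oxidase genes and Rac1, with PBS in blue and vesicles in orange. In pericyte-labelled cells Cybb goes from 0.227 to 1.17 and reaches the range of Nox4, while Cyba is at 35.6 and 37.3.

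The rest of the complex was read from a list of 14 other NADPH oxidase genes, of which 6 were tested in the retina and 2 rose. Over all genes tested there 10.7% were called as higher, and 2 of 6 rests on few genes. Rap1a, a small GTPase that copurifies with the membrane core, rose from 74.7 ± 9.44 to 108 ± 9.67 CPM (adjusted p = 0.012). Rac1 was at 72.3 ± 16.6 and 92.4 ± 10.7 CPM (adjusted p = 0.18), and Cybc1, a chaperone of the membrane core, at 20.1 ± 1.93 and 23.6 ± 0.968 CPM (adjusted p = 0.25). The alternative catalytic chains Nox1 and Nox3, the DUOX genes and their partners did not pass the filter in the retina. In the pericyte-labelled cells 7 of the 14 were tested and 0 were called by edgeR, beside 19.8% of all genes tested in that table. There Rac1 was at 295 ± 3.19 and 307 ± 10.3 CPM (adjusted p = 0.57) and Cybc1 at 32.5 ± 1.49 and 36.7 ± 2.89 CPM (adjusted p = 0.14).

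Most genes of a list linked to control of the oxidase, called activation genes here, rose in the retina with the subunits. Of 22 activation genes tested there, 14 rose and 0 fell, with a median log2 fold change of 1.64. Over all genes tested in the retina 10.7% were called as higher. The list also holds genes that restrain Rac, so the counts give no direction for oxidase activity. Kinases of integrin and Fc receptor signalling were among those with the smallest p, with Syk from 1.55 ± 0.660 to 13.5 ± 1.88 CPM (adjusted p = 0.00029) and Lyn from 5.89 ± 2.32 to 34.3 ± 6.24 CPM (adjusted p = 0.00089). Vav1, an exchange factor for Rac in blood-derived cells, rose from 0.374 ± 0.0773 to 5.72 ± 1.66 CPM (adjusted p = 0.00025). Prkcd, a kinase that phosphorylates p47phox, rose from 5.02 ± 1.12 to 19.3 ± 4.65 CPM (adjusted p = 0.00082). Several of these genes mark leukocytes, and the list is not independent of the marker lists, Itgam being in both.

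In the pericyte-labelled cells 20 activation genes were tested, of which 5 rose and 3 fell, with a median of 0.41. Over all genes tested there 10.9% were called as higher and 8.90% as lower. Pik3r5, a regulatory subunit of phosphoinositide 3-kinase gamma, rose from 4.05 ± 0.142 to 29.4 ± 0.802 CPM (a log2 change of 2.86 ± 0.11 with an adjusted p of 1.3e-14). Lyn rose from 13.8 ± 1.13 to 22.1 ± 0.465 CPM, Prkcd from 19.7 ± 1.48 to 29.2 ± 1.43 CPM and Pla2g4a, a phospholipase, from 14.4 ± 1.39 to 23.0 ± 2.35 CPM. Pak1, a kinase downstream of Rac, fell from 169 ± 6.12 to 110 ± 2.69 CPM (adjusted p = 3.0e-08). Vav1 was at 0.388 ± 0.133 and 0.379 ± 0.238 CPM (adjusted p = 0.99).

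Of 10 transcription factors linked to these genes, 7 were tested in each table. Of these, 6 rose in the retina (median log2 fold change 1.86) and 5 in the pericyte-labelled cells (median 1.43). Over all tested genes the shares called as higher were 10.7% in the retina and 10.9% in the other table. Spi1 (PU.1), the myeloid master factor, rose from 1.72 ± 1.06 to 17.1 ± 4.11 CPM in the retina (adjusted p = 0.0014) and from 0.590 ± 0.103 to 1.61 ± 0.776 CPM in the pericyte-labelled cells (adjusted p = 0.021). Irf8, its partner in myeloid cells, rose from 1.44 ± 0.666 to 12.7 ± 2.96 CPM in the retina and from 0.627 ± 0.299 to 1.93 ± 0.167 CPM in the other cells. In the pericyte-labelled cells the interferon-responsive Irf1 rose from 24.7 ± 1.37 to 114 ± 4.52 CPM (adjusted p = 5.5e-16). In the retina the log2 fold change of Irf1 was 1.73 ± 0.17 (adjusted p = 0.00025). Cebpb rose from 3.15 ± 0.193 to 34.9 ± 8.53 CPM in the retina and from 33.4 ± 4.28 to 78.6 ± 12.2 CPM in the other cells. Hoxa9 and Hoxa10 were at 0 in every library of both tables.

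**Figure D5:**
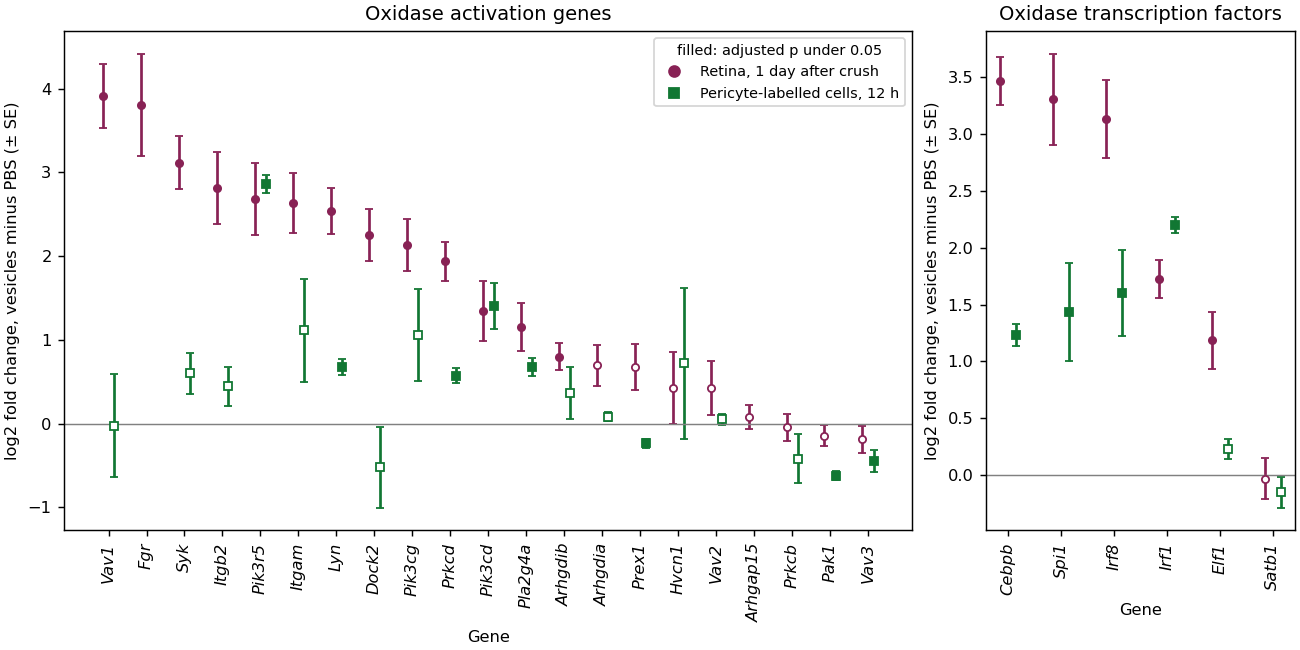
Log2 fold change of vesicles over PBS ± SE for the lists of activation genes and transcription factors, with retina as circles and pericyte-labelled cells as squares, filled where adjusted p was under 0.05. Not every gene of the lists is drawn, and Vav1 is high in the retina (3.91) and near 0 in the pericyte-labelled cells (-0.02).

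Superoxide and peroxide are removed by dismutases, peroxidases and peroxiredoxins. Of 15 such genes tested in the retina 4 rose and 0 fell (median 0.29), and of 15 tested in the pericyte-labelled cells 4 rose and 1 fell (median 0.10). The shares of all tested genes called as higher and as lower were 10.7% and 5.19% in the retina. For the pericyte-labelled cells these shares were 10.9% and 8.90%, and the list holds few genes. Sod2, the mitochondrial superoxide dismutase, rose from 159 ± 11.7 to 253 ± 30.0 CPM in the retina (adjusted p = 0.0038) and from 86.4 ± 2.77 to 170 ± 11.9 CPM in the other cells (adjusted p = 9.7e-11). Peroxiredoxin Prdx5 rose in both tables, by 0.50 ± 0.11 in the retina and by 0.36 ± 0.07 in the other cells on the log2 scale. Prdx6, which is also known to assist the oxidase, fell by 0.29 on the log2 scale in the pericyte-labelled cells (adjusted p = 0.00050). Myeloperoxidase, Mpo, which uses the peroxide made downstream of the oxidase in neutrophils, was at 0 in all 12 libraries.

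Genes with the closest pattern were taken by the root mean square difference of centred log2 CPM over the 6 libraries of a table. For Cybb in the retina, among 14514 other genes, these were Itgam (0.0865), Myo1f (0.121), 1500035N22Rik (0.150) and Cd74 (0.156). Itgam is an integrin chain of phagocytes and Cd74 the invariant chain of class II antigen presentation. For Rac2 in the retina they were Casp4 (0.154), Csf2rb2 (0.179), Ms4a6d (0.190) and C5ar1 (0.230). In the pericyte-labelled cells the genes closest to Cybb were other ones, among them Chil1 (0.102), Parp9 (0.127) and Il11 (0.146), out of 14130. Those closest to Rac2 there were Trim5 (0.149), Gm49774 (0.158), Atp6v1c2 (0.162) and Timp1 (0.167), and those closest to Nox4 were Phc3 (0.0454), Gm19426 (0.0466), Nexn (0.0475) and Zkscan7 (0.0491). The measure rests on 6 libraries in 2 groups, so it mostly reflects a similar size of the group difference.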

How the data were processed

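Bulk RNA of 12 mouse samples was sequenced, from Trizol extracts made into NEBNext Ultra libraries, per the labels' protocols. The authors used FastQC 0.11.8, HISAT2 2.0.5, featureCounts 1.5.0-p3 and limma, per the submitters' processing notes. The genome build is not given in these sources. Both deposited tables hold raw counts for each gene. Libraries of a group differed by more than sampling noise (chi-squared per degree of freedom at least 6.12).

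Each table was tested in R 4.3.3 with edgeR 4.0.16 (filterByExpr with a minimum count of 10, TMM, robust quasi-likelihood F test, Benjamini-Hochberg over all tested genes, 4 residual degrees of freedom). SE is the log2 fold change over the square root of F. The difference between settings used limma 3.58.1 with voom and a weight per table. Alternatives were DESeq2 1.42.0, voom, RLE scaling, no filter, a non-robust fit, a replicate block, each library left out, and lens-rich libraries or crystallin genes left out. The fits were tested on simulated data. Counting intervals are not given, since reads lack molecular identifiers.

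The 6 genes and all lists were chosen with earlier results of these data known. Named from each list were up to 5 genes with the smallest p, Rac1 and Cybc1 always, and for Cybb, Rac2 and Nox4 the 4 genes of closest pattern (prior count 2, mean at least 1 CPM). Marker genes, Gtf2ird2, Mpo, Hoxa9, Hoxa10, the untested oxidase genes and Vav1 in the pericyte-labelled cells were named after their values were seen. Some genes that the rule takes are not reported here, though list counts and medians include them.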

Additional observations from a re-analysis of the deposited data

Results flagged for a closer look

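The vesicle effect differed between the retina and the pericyte-labelled cells, by the joint fit, for Cyba (difference of log2 fold changes 1.53), Ncf1 (2.66), Ncf4 (3.55) and Rac2 (2.98), each larger in the retina. The joint fit called 11.9% of all its genes as different. In the retina all 3 vesicle libraries were above all 3 PBS libraries for each of these 4 genes, while in the pericyte-labelled cells this held for Rac2 and not for Cyba, Ncf1 or Ncf4. Such separation was met in 19.5% of all genes tested in the retina and in 17.4% of those tested in the pericyte-labelled cells. Summed neutrophil markers rose in the same retina libraries, from at most 39.6 to at least 391 CPM, and their part in these differences was not tested.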

How the results depend on the processing

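In the retina Cybb, Ncf1, Ncf4 and Rac2 kept their direction and their call under all 14 alternatives, with log2 fold changes from 2.44 to 3.04, 2.98 to 3.46, 3.27 to 3.70 and 3.45 to 4.30. Cyba did so under 13 (1.42 to 1.84) and was not called without the lens-rich library of each group (1.53, adjusted p = 0.074), where fewer samples were fitted. Cybb in the pericyte-labelled cells was called under all 12 alternatives (2.16 to 2.49). Leaving out 1 library moved Rac2 there between 0.98 and 1.29, with adjusted p from 0.015 to 0.088, and Nox4 in the retina between differences of 0.403 and 1.01 CPM. The retina called 2449 genes, from 1328 (without PBS library 2) to 2909 when 1 library was left out, with 1401 without vesicle library 1, 1381 without vesicle library 2 and 1420 without the lens-rich libraries. Removing crystallin genes left 2454. The pericyte-labelled table called 3365 genes, and from 2412 to 3500 when 1 library was left out. Correlations of deviations of same-numbered libraries were 0.21, -0.19 and -0.05 in the retina and 0.02, 0.04 and -0.01 in the other table. Between unlike-numbered retina libraries they ran from -0.15 to 0.22. With 3 libraries in each group these values cannot tell whether the numbers pair samples. With the replicate number as a block 1919 retina genes and 3287 genes of the other table were called, and Cybb stood at 2.85 and 2.35. Calls of the differences between settings were the same with no weight per table. The uncalled values of Cyba, Ncf4 and Nox4 in the pericyte-labelled cells changed sign when single libraries were left out. Low counts limit Ncf4 in the pericyte-labelled cells and Nox4 in the retina.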

Other observations

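Cybb held a steady proportion to the macrophage lysozyme gene Lyz2 within each group of the pericyte-labelled cells, with 1.86, 1.82 and 1.83 Cybb counts per 100 Lyz2 counts under PBS and 7.40, 7.18 and 7.42 under vesicles. The mean of Lyz2 itself was 71.8 CPM under PBS and 92.8 CPM under vesicles (edgeR, adjusted p = 0.14). In the retina the proportion moved the other way, from 4.40, 1.77 and 4.05 with PBS to 1.56, 1.29 and 1.50 with vesicles. These ratios were looked at without a rule fixed for them and were not tested.

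Rac2 stood at 6.59, 1.23 and 3.06 counts per 100 Rac1 counts under PBS in the retina and at 43.4, 39.0 and 33.9 under vesicles. In the pericyte-labelled cells it stood at 0.347, 0.244 and 0.312 with PBS and at 0.649, 0.789 and 0.482 with vesicles. Rac1 counts exceeded Rac2 counts in all 12 libraries.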
